A study of Mus musculus with 24 samples.

Results

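The CXC chemokines described here were 9 mouse genes: Cxcl1, Cxcl2, Cxcl5, Cxcl9, Cxcl10, Cxcl12, Cxcl13, Cxcl14 and Cxcl16. They were chosen by name, and every probe set annotated to one of them and to no other gene was taken. That gave 17 probe sets, out of 34945 single-gene probe sets of 18193 genes on the array, and each of the 9 genes had at least 1. Expression was measured in 12 ADR arrays and 12 untreated arrays, 1 of each from 12 B-cell lymphomas of Emu-myc transgenic mice, in which Myc is overexpressed in B-lineage cells. ADR cells were cultured for 5 days with 0.05 µg/ml Adriamycin (doxorubicin, a drug that damages DNA), and untreated cells of the same lymphoma received no drug. Cells of both groups carried retroviral Bcl2 (MSCVpuro), which blocks apoptosis, had been selected with puromycin and grew on gamma-irradiated NIH 3T3 cells, a mouse fibroblast line. The total RNA of a culture can therefore hold RNA of the feeder and of other cells of the lymph node, and no lymphoma cell sort is described in the labels. Each lymphoma is 1 primary tumour, named by its number in the labels.

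CXC chemokines are small secreted proteins whose first conserved cysteines are separated by a single residue, and they direct the migration of white blood cells by binding G protein-coupled receptors. In the mouse, Cxcl1, Cxcl2 and Cxcl5 bind Cxcr2 and attract neutrophils, and NF-kB drives their transcription in fibroblasts, epithelial cells and macrophages. Cxcl9 and Cxcl10 are induced by interferons and attract T and NK cells through Cxcr3. Cxcl12 and Cxcl13 guide B cells through lymphoid tissue by way of Cxcr4 and Cxcr5. Neutrophil-attracting chemokines belong to the secretory programme of senescent fibroblasts, which makes their cell of origin a question in any culture with a fibroblast feeder.

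Promoter sequences were at hand for 7 of the 9 members, so Cxcl5 and Cxcl16 were not searched. Shown are Cxcl1, Cxcl2 and Cxcl10, the searched members whose 250 bases before the gene start held an NF-kB-type motif on either strand. That motif is GGG, any 3 bases, then TTCC. The sequences are RefSeq's (GRCm38.p6), read 5′ to 3′ on the gene's own strand, with matches in capitals. They lie at chr5:90890995-90891244 on the plus strand for Cxcl1, chr5:90903649-90903898 on the plus strand for Cxcl2 and chr5:92348890-92349139 on the minus strand for Cxcl10.
Cxcl1: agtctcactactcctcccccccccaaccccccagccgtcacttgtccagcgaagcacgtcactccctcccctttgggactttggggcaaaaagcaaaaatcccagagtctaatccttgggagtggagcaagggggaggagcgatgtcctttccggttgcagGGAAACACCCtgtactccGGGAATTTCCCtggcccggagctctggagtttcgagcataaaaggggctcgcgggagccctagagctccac
Cxcl2: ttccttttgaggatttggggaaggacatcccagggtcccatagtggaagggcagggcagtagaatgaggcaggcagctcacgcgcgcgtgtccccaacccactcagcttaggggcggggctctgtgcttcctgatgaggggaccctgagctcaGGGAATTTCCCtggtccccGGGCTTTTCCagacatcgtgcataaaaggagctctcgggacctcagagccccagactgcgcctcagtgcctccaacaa
Cxcl10: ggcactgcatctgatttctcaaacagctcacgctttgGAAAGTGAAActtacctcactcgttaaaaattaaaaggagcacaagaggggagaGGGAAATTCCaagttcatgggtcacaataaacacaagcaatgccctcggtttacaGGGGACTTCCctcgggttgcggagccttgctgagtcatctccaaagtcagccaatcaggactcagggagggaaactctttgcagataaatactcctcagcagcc
The neighbouring genes Cxcl1 and Cxcl2 share the block GGGAATTTCCC, which holds 2 overlapping matches, 1 per strand, starting 71 and 70 bases before the start of Cxcl1 and 97 and 96 bases before that of Cxcl2. Cxcl10 has GGGAAATTCC and GGGGACTTCC, and in addition GAAAGTGAAA, a match to an interferon-response-type motif (GAAA, any 2 bases, then GAAA) with no match in the Cxcl1 and Cxcl2 windows. The NF-kB-type motif occurred in 1527 of 32851 RefSeq promoter windows of the same length (4.65%) and in 3 of the 7 members with an entry. The interferon-response-type motif occurred in 978 windows (2.98%) and in 2 of the 7 members, Cxcl10 and Cxcl14. A match describes the letters and not a bound site. As measured below, Cxcl1 and Cxcl2 were both called higher in ADR cultures, whereas the change of Cxcl10 did not pass the test.

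With ADR, the 3 neutrophil-attracting chemokines were higher and the other 6 genes were not called. All values are log2 expression, changes are ADR minus untreated within a lymphoma, and a probe set was called at an adjusted p under 0.05 (limma with the lymphoma as a block, Benjamini-Hochberg over all 34945 probe sets). Of the 17 probe sets, 5 were called higher, 3 of Cxcl1 and 1 each of Cxcl2 and Cxcl5, and 0 were called lower. Over all probe sets tested, 11.3% were called higher and 12.5% lower. Counted with 1 probe set per gene, 3 of the 9 members and 13.7% of 18193 genes were called higher. At an unadjusted p under 0.05, limma counted 7 of the 17 and 34.9% of all probe sets, and the 2 added ones were the 2 probe sets of Cxcl16, both higher. The median change was 0.12 over the 17 probe sets and -0.01 over all probe sets tested.

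**Figure D1:**
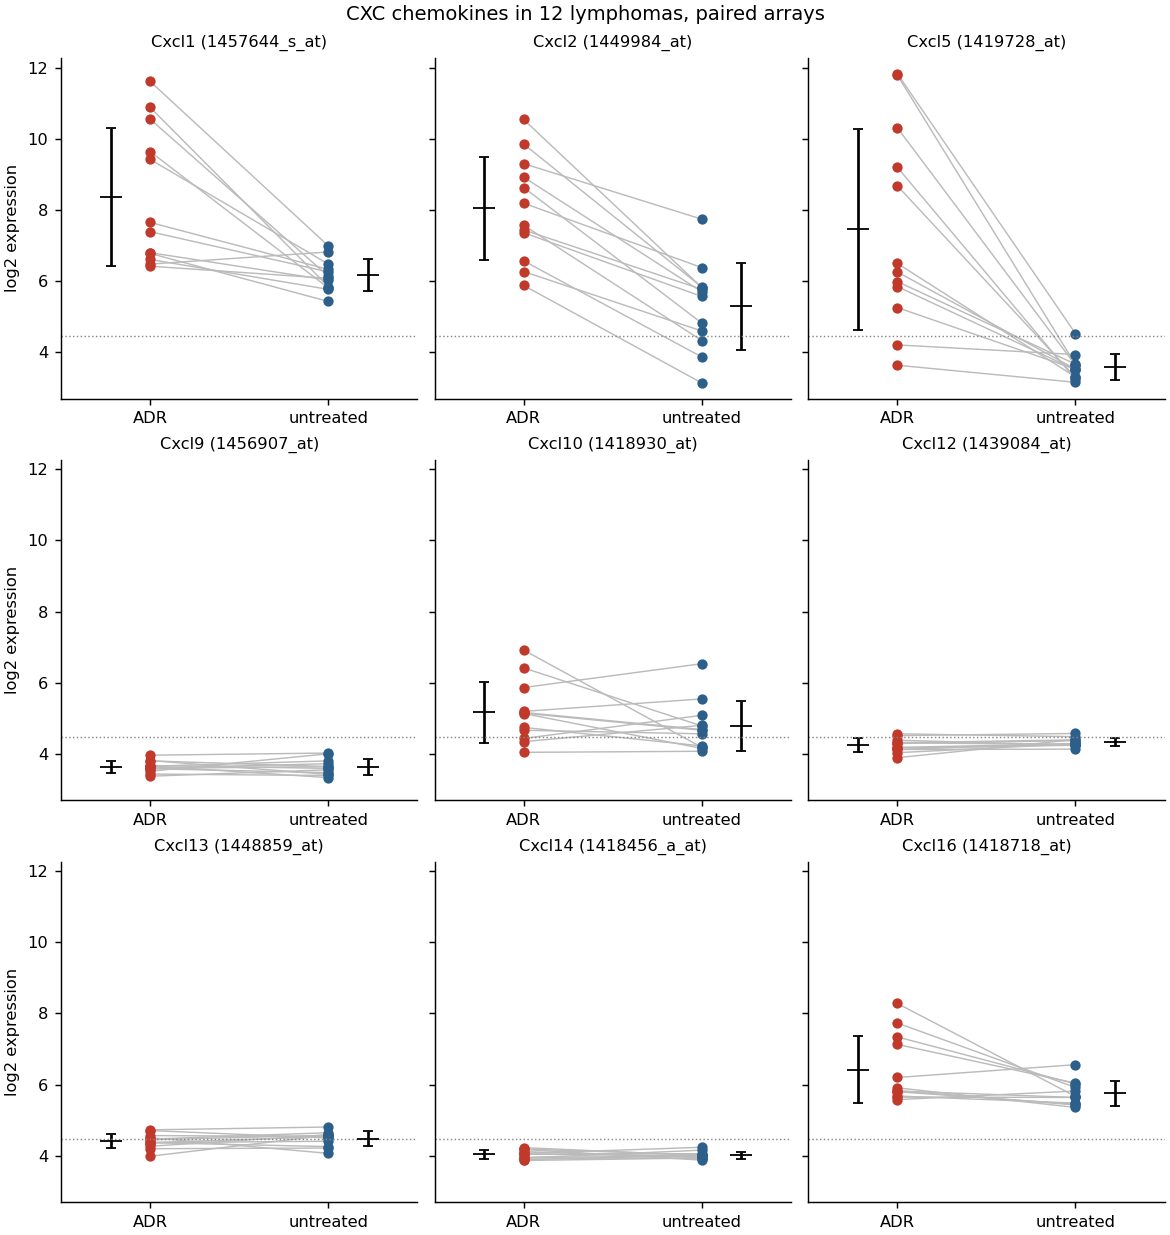
Log2 expression of the 9 CXC chemokines (the probe set with the highest mean of each gene) in 12 ADR arrays (red, left) and 12 untreated arrays (blue, right), with grey lines joining the arrays of 1 lymphoma, bars for mean and SD, and a dotted line at the highest array median, 4.47. Cxcl1, Cxcl2 and Cxcl5 spread upward in ADR arrays, while Cxcl9, Cxcl12, Cxcl13 and Cxcl14 stay near or below the dotted line in both groups.

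Cxcl5, a neutrophil attractant best known from epithelial and stromal cells, had the largest change among the members. Its only probe set, 1419728_at, had a lowest value of 3.64, a median of 6.38 and a highest value of 11.83 in ADR arrays, against 3.16, 3.53 and 4.53 in untreated arrays. No fold is given, because the untreated mean sat near the floor of the array, taken as a group mean no higher than 4.47, the largest of the array medians. In words, Cxcl5 was close to undetected in untreated cultures, and 10 of the 12 ADR arrays lay above the highest untreated array. The change was 3.88 (SE 0.70, adjusted p = 0.0013, limma), positive in 12 of 12 lymphomas, and it ranged between 0.28 in lymphoma 1467 and 8.12 in lymphoma 403.

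Cxcl1, the mouse counterpart of GRO-alpha, was measured by 3 probe sets that agreed in their order of arrays (r between 0.91 and 0.97 over 24 arrays, a description). Probe set 1419209_at had a lowest value of 5.22, a median of 7.28 and a highest value of 12.06 in ADR arrays, against 4.17, 4.96 and 7.05 in untreated arrays. It was 8.0-fold higher with ADR (change 3.00, SE 0.59, adjusted p = 0.00247, limma). The groups overlapped: 7 ADR arrays lay above every untreated array, and the other 5 lay within the untreated range. Probe set 1457644_s_at had a lowest value of 6.42, a median of 7.52 and a highest value of 11.61 in ADR arrays, against 5.43, 6.11 and 6.99 in untreated arrays. It was 4.55-fold higher (change 2.18, SE 0.48, adjusted p = 0.00508, limma) and 1441855_x_at was 1.49-fold higher (change 0.58, SE 0.16, adjusted p = 0.0201, limma). The direction was the same in all 3, and each was higher in 11 of 12 lymphomas, with lymphoma 1467 as the exception. The suffixes _s_at and _x_at mark probe sets that can bind more than 1 transcript, so the sizes of these changes may include other transcripts.

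Cxcl2, also called MIP-2, which macrophages and neutrophils release early in inflammation, was higher with a smaller spread. Its probe set 1449984_at had a lowest value of 5.88, a median of 7.88 and a highest value of 10.54 in ADR arrays, against 3.14, 5.63 and 7.74 in untreated arrays. It was 6.71-fold higher (change 2.75, SE 0.28, adjusted p = 2.69e-05, limma). Every lymphoma showed the increase, by between 1.56 and 4.72, including lymphomas 1467 and 2949, in which Cxcl1 and Cxcl5 changed least. Of all probe sets tested, 2.44% were higher in all 12 lymphomas. The groups still overlapped: 6 ADR arrays lay above the highest untreated array and 6 did not. Untreated Cxcl2 levels already varied between lymphomas, and over the 12 untreated arrays they gave r = 0.70 with the neutrophil marker mean, r = 0.57 with the macrophage marker mean and r = 0.39 with the fibroblast marker mean, lists described further on. Over the 12 ADR arrays the values were r = 0.68 with the neutrophil, r = 0.64 with the macrophage and r = 0.69 with the fibroblast marker mean, so the fibroblast list was not lowest there. These correlations are given as a description without a test, and arrays of a group share their normalization.

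Cxcl16 is made as a membrane-bound protein by macrophages and dendritic cells, is shed by the metalloproteinase Adam10 and attracts Cxcr6-bearing T cells. Its probe set 1418718_at had a lowest value of 5.58, a median of 5.87 and a highest value of 8.28 in ADR arrays, against 5.36, 5.66 and 6.56 in untreated arrays. The medians were close, and the upper end came from 4 lymphomas: 3769 (8.28), 3594 (7.73), 3802 (7.34) and 2581 (7.13) were the ADR arrays above every untreated array. The change was 0.66 (SE 0.23, adjusted p = 0.0537, limma), positive in 10 of 12 lymphomas. The second probe set, 1449195_s_at, followed the first over the arrays (r = 0.92), with a change of 0.95 (SE 0.36, adjusted p = 0.0737, limma). Neither probe set was called with all lymphomas in the fit of all probe sets. When only probe sets with a mean of at least 5 were tested, the first was called (0.66, adjusted p = 0.0329, limma). Without lymphoma 403 both were (0.75 and 1.13, adjusted p = 0.0363 each), and without lymphoma 2949 the first was (0.74, adjusted p = 0.0366).

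Cxcl10, an interferon-inducible ligand of Cxcr3, was higher with ADR in some lymphomas and lower in others. Probe set 1418930_at had a lowest value of 4.05, a median of 5.15 and a highest value of 6.92 in ADR arrays, against 4.08, 4.68 and 6.54 in untreated arrays. It was higher in 7 of 12 lymphomas, and the mean change of 0.40 (SE 0.26, adjusted p = 0.319, limma) was not called. Lymphoma 3769 had the highest ADR value and 4.19 untreated, a change of 2.73. Lymphoma 403 had the highest untreated value and a change of -0.67. Cxcl9, the related Cxcr3 ligand that depends on interferon gamma, stayed near the floor, with 3.32, 3.52 and 3.70 (lowest, median, highest) in ADR arrays and 3.04, 3.52 and 4.20 in untreated arrays at probe set 1418652_at. Its change was -0.04 (SE 0.09, adjusted p = 0.803, limma), and at 1456907_at it was 0.01 (adjusted p = 0.969).

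The 3 remaining genes are the homeostatic ligands Cxcl12, Cxcl13 and Cxcl14, produced by stromal or follicular cells in resting tissue, and none was called. The 3 probe sets of Cxcl12 had changes between -0.09 and 0.12 (adjusted p between 0.298 and 0.596, limma). The widest spread was at 1448823_at, where the ADR arrays of lymphoma 5560 (4.05) and lymphoma 2581 (3.85) were the highest values, both under the array medians. Cxcl13 had a change of -0.03 at 1417851_at and -0.06 at 1448859_at (adjusted p = 0.706 and 0.624), and Cxcl14 by 0.02 at both of its probe sets (adjusted p = 0.827 and 0.863). Probe sets of the same gene did not follow each other here (r between -0.29 and -0.05 within Cxcl12, -0.12 within Cxcl13 and -0.10 within Cxcl14). RMA values at this level are compressed, so a change in these 3 genes could be understated or missed.

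**Figure D2:**
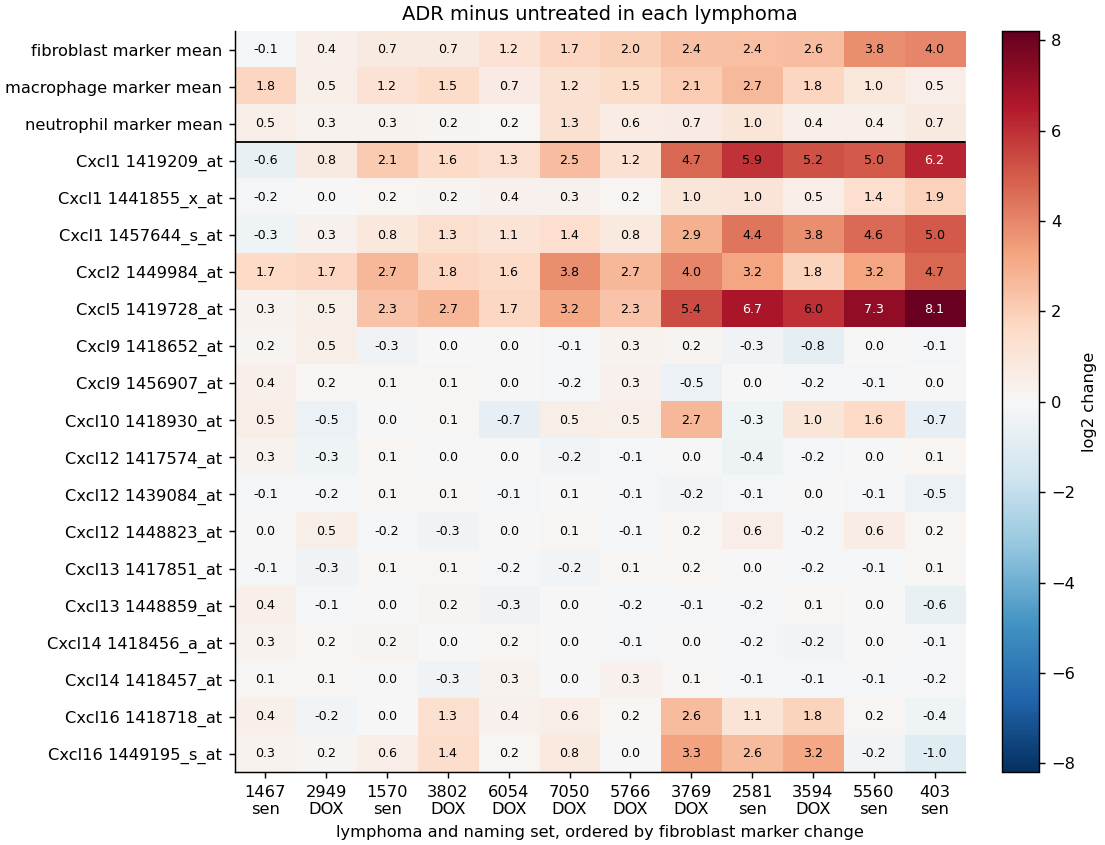
ADR minus untreated log2 change of each of the 17 chemokine probe sets (rows) in each of 12 lymphomas (columns, ordered by the change of the fibroblast marker mean), below the changes of 3 marker means. The Cxcl1 and Cxcl5 rows darken from left to right with the fibroblast row, Cxcl2 is positive throughout, and the strongest Cxcl16 columns are 3769, 3594, 3802 and 2581.

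Marker genes of other cell types, and of B cells, were measured on the same arrays. The mean of 29 fibroblast genes (collagens, Fn1, Lox and others) lay between 4.51 and 8.35 in ADR arrays and between 4.18 and 4.92 in untreated arrays, and 23 of the 29 were called higher. By group mean, 23 of the 29 were above the floor in ADR arrays and only 11 in untreated arrays. The mean of 22 macrophage genes lay between 5.91 and 8.78 in ADR arrays and between 4.73 and 7.82 in untreated arrays, with 14 called higher. Of 9 neutrophil genes 2 were called higher, Lcn2 and S100a8, while S100a9, Ngp, Ltf, Elane and Mpo were near the floor in both groups, and the list mean lay between 4.24 and 5.69 in ADR arrays and between 3.98 and 5.05 in untreated arrays. T and NK cell genes (11 measured, means of 3.94 to 4.42 in ADR arrays and 4.01 to 4.46 in untreated arrays) and endothelial genes (8 measured, 7 near the floor) were low in both groups. Of 7 follicular stroma genes 2 were called higher, Pdpn and Clu, while Cr2, Fcer2a, Madcam1 and Il7 were near the floor in both groups. All 9 B-cell genes measured were above the floor in both groups, with list means of 7.45 to 10.1 in ADR arrays and 8.82 to 9.79 in untreated arrays, and 4 of them were called lower. Beside these counts, 13.7% of all genes were called higher and 12.8% lower with 1 probe set per gene. The fibroblast mean changed by between -0.08 and 4.03 across lymphomas, a wider range than that of the neutrophil mean (0.18 to 1.27).

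Over all 12 lymphomas, Cxcl1 and Cxcl5 followed the fibroblast genes. The change of Cxcl5 correlated with the change of the fibroblast marker mean at r = 0.94 (permutation p = 2e-05, adjusted 0.00027) and rho = 0.94 (permutation p = 1e-05, the smallest 100000 resamples can give, adjusted 0.00027). For Cxcl1 (1457644_s_at) the correlation was r = 0.92 (permutation p = 2e-05, adjusted 0.00027) and rho = 0.92 (permutation p = 0.00013, adjusted 0.00175). Adjustment was over the 27 relations of 9 genes with 3 marker lists. With lymphomas 403 and 5560 left out, whose fibroblast changes lay farthest from the median, r was 0.89 for Cxcl5 (permutation p = 0.00052) and 0.85 for Cxcl1 (permutation p = 0.00082). In bulk RNA, more fibroblasts per culture and more chemokine RNA per fibroblast cannot be told apart, nor can fewer lymphoma cells and less RNA per lymphoma cell. Which cells held the chemokine RNA was not tested.

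**Figure D3:**
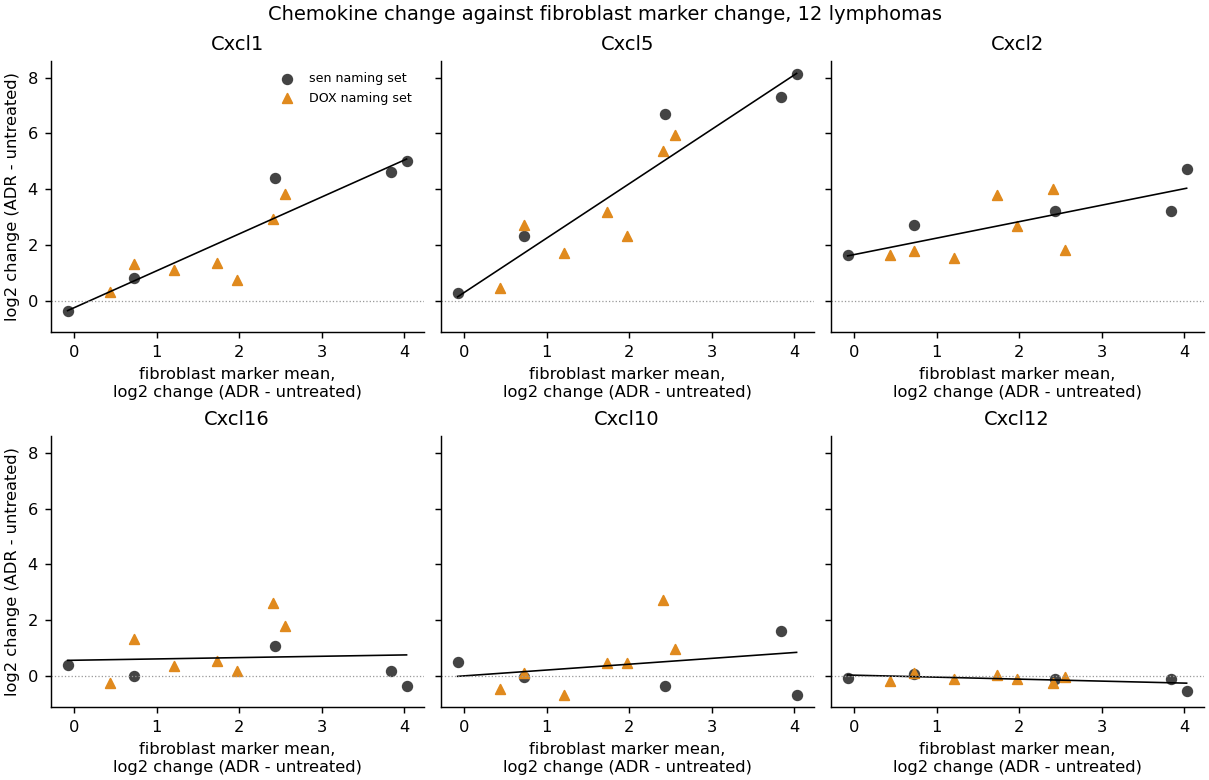
ADR minus untreated log2 change of 6 chemokines (vertical) against that of the fibroblast marker mean (horizontal), 1 point per lymphoma, with least-squares lines and marker shapes for the 2 naming sets of the arrays. Cxcl1 and Cxcl5 rise along lines that pass close to 0, Cxcl2 starts above 0 at the left end, and Cxcl16, Cxcl10 and Cxcl12 show no slope that passed the test.

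In the fit across all probe sets, Cxcl5 rose by 1.95 log2 units per unit of the fibroblast marker mean (SE 0.20, adjusted p = 4.25e-05, limma). The slopes of Cxcl1 were 1.56 (SE 0.23, adjusted p = 0.000678), 1.32 (SE 0.16, adjusted p = 0.000145) and 0.44 (SE 0.06, adjusted p = 0.000456) at its 3 probe sets in the same fit. Cxcl2 had a slope of 0.59 (SE 0.16, adjusted p = 0.0293). These 5 slopes were called among the 17 probe sets, and 7.05% of all probe sets had a positive slope called. The Cxcl2 call was lost without lymphoma 403 (0.47, adjusted p = 0.149), 1467 (0.60, adjusted p = 0.0755), 2949 (0.57, adjusted p = 0.0652) or 3802 (0.57, adjusted p = 0.0542), and with only the collagen genes as markers (0.49, adjusted p = 0.0545). Slopes of Cxcl16 (0.05 and -0.01) and Cxcl10 (0.21) were not called, with adjusted p of 0.918, 0.995 and 0.602 in limma.

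The same fit gives the ADR change expected at an equal fibroblast marker mean, and there Cxcl2 alone was called among the 17 probe sets. Its change was 1.67 (SE 0.36, adjusted p = 0.0186, limma), against 2.75 without the marker term, and 1.75% of all probe sets were called higher in this way. The call did not hold without lymphoma 1467 (1.65, adjusted p = 0.0849) or 1570 (1.52, adjusted p = 0.0511), although the estimate was close to the full value. At an equal fibroblast mean the change of Cxcl5 was 0.31 (SE 0.44, adjusted p = 0.782) and that of Cxcl1 0.14 (SE 0.51, adjusted p = 0.926) at 1419209_at. SEs of that size leave room for a change in either direction. The fibroblast mean rose in 11 of 12 lymphomas, so an equal mean lies at the edge of its measured changes (-0.08 to 4.03). In lymphoma 1467, whose fibroblast mean changed by -0.08, Cxcl2 rose by 1.66, while the change lay between -0.59 and -0.18 over the 3 Cxcl1 probe sets and was 0.28 for Cxcl5. Lymphoma 2949, with a fibroblast change of 0.43, had changes of 1.67 for Cxcl2, 0.47 for Cxcl5 and 0.00 to 0.75 over the 3 Cxcl1 probe sets. The ADR array of lymphoma 1467 is the only one whose senescence label reads yes, where the other 11 read TIS, and it was placed in the ADR group by its title. Leaving out this lymphoma brought the count of all probe sets called at an equal fibroblast mean to 639, against 1669 with it.

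**Figure D4:**
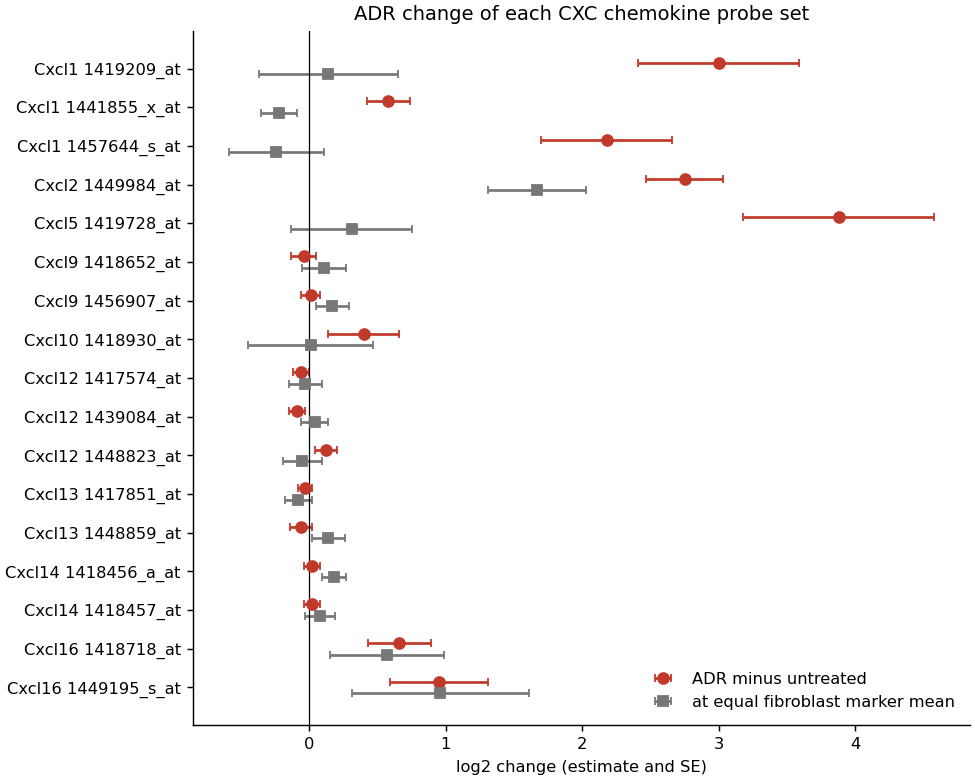
Estimated log2 change and SE of each chemokine probe set from the fit with the lymphoma as a block (red circles) and from the fit that adds the fibroblast marker mean (grey squares). The grey squares of Cxcl1 and Cxcl5 lie within 2 SE of 0, and that of Cxcl2 stays at 1.67.

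Differences between the slopes were tested for all 24 pairs of probe sets from different genes among Cxcl1, Cxcl2, Cxcl5, Cxcl10 and Cxcl16, by permuting the lymphomas, a test added after the slopes had been seen. Of the 24, 15 passed at a permutation p adjusted over the pairs under 0.05. The slope of Cxcl5 exceeded that of Cxcl2 by 1.36 (95% interval 0.73 to 1.98, adjusted permutation p = 0.00187), that of Cxcl10 by 1.74 (1.02 to 2.46, adjusted permutation p = 0.00075) and that of Cxcl16 at 1418718_at by 1.90 (1.40 to 2.40, adjusted permutation p = 0.00016). For Cxcl1 the outcome depended on the probe set. Its excess over Cxcl2 was 0.97 at 1419209_at (0.31 to 1.64, adjusted permutation p = 0.0161) and 0.73 at 1457644_s_at (0.11 to 1.36, adjusted permutation p = 0.0441), but at 1441855_x_at the slope of Cxcl2 was the higher one by 0.15 (-0.22 to 0.53, adjusted permutation p = 0.429). The first 2 of these Cxcl1 probe sets also exceeded Cxcl10 and both Cxcl16 probe sets past the threshold, and 1441855_x_at did not. Cxcl2 did not differ past the threshold from Cxcl10 (0.38, -0.26 to 1.02) or from Cxcl16 (0.54, -0.10 to 1.18, at 1418718_at). Slopes of different probe sets also depend on how each responds to RNA, so these differences are between probe sets on the array and not between amounts of RNA.

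Cxcl2, Cxcl16 and Cxcl10 were also set against the myeloid lists. The change of Cxcl2 correlated with that of the neutrophil marker mean at r = 0.68 (permutation p = 0.0124, adjusted 0.0669) and rho = 0.76 (permutation p = 0.00617, adjusted 0.0384), and r was 0.79 without lymphomas 2581 and 7050 (permutation p = 0.00681). Of the 9 genes of the neutrophil list only 2 were called with ADR, Lcn2 and S100a8. The change of Cxcl2 gave a similar r of 0.71 with that of the fibroblast mean (permutation p = 0.0106, adjusted 0.0669). There rho was 0.67 (permutation p = 0.0205, adjusted 0.0923), and r was 0.58 without lymphomas 403 and 5560 (permutation p = 0.0819). With the macrophage mean Cxcl2 gave r = 0.06 (permutation p = 0.849). Cxcl16 went with the macrophage marker mean at r = 0.70 (permutation p = 0.0103, adjusted 0.0669) and rho = 0.79 (permutation p = 0.00297, adjusted 0.0267), and at r = 0.76 without lymphomas 2581 and 2949 (permutation p = 0.00912). For Cxcl2 with the neutrophil mean and Cxcl16 with the macrophage mean, the rank correlation passed the adjusted threshold and Pearson's r did not. Cxcl16 and the fibroblast mean gave r = 0.07 (permutation p = 0.829), but r = 0.63 (permutation p = 0.05) without lymphomas 403 and 5560, whose large fibroblast changes went with Cxcl16 changes of -0.36 and 0.18. For Cxcl10 the correlation was r = 0.27 with the fibroblast mean (permutation p = 0.401) and r = 0.40 with the macrophage mean (permutation p = 0.199). Levels over the 12 ADR arrays, described without a test, gave for Cxcl10 r = 0.75 with the fibroblast and 0.71 with the macrophage mean. These values were 0.18 and 0.63 for Cxcl16, 0.87 and 0.71 for Cxcl1, and 0.90 and 0.70 for Cxcl5. Over the 12 untreated arrays r with the fibroblast mean was 0.06 for Cxcl10, -0.36 for Cxcl16, 0.46 for Cxcl1 and 0.21 for Cxcl5. The change of Cxcl14, a gene near the floor, gave r = -0.68 with that of the fibroblast mean (permutation p = 0.0155, adjusted 0.0699) and rho = -0.75 (permutation p = 0.00711, adjusted 0.0384). The limma slopes of Cxcl14 were not called. Slopes on the macrophage mean were 0.94 (adjusted p = 0.57) and 1.62 (adjusted p = 0.345) for Cxcl16 and were not called in limma, where 0.0572% of all probe sets had a positive one called.

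**Figure D5:**
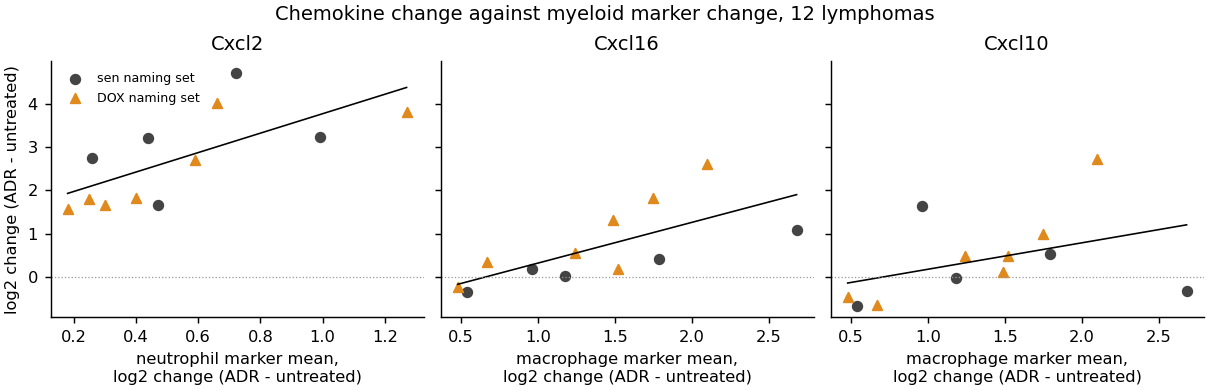
ADR minus untreated log2 change of Cxcl2 against that of the neutrophil marker mean, and of Cxcl16 and Cxcl10 against that of the macrophage marker mean, 1 point per lymphoma with least-squares lines. All marker changes are above 0, and the spread around the lines is wider for Cxcl10 than for Cxcl16.

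The macrophage mean rose in 12 of 12 lymphomas, by 0.48 to 2.68, and so did the neutrophil mean. The fits that hold these means equal therefore estimate a point outside the measured changes. With the macrophage mean as covariate the change of Cxcl2 was 2.61 (adjusted p = 0.203, limma), and with the neutrophil mean it was 1.52 (adjusted p = 0.157). With both the fibroblast and the macrophage mean it was 1.51 (adjusted p = 0.339). With the macrophage mean as covariate, the change was -0.63 and -1.27 at the 2 probe sets of Cxcl16 (adjusted p = 0.598 and 0.425) and -0.44 for Cxcl10 (adjusted p = 0.838). With the neutrophil mean it was 0.50 and 0.59 for Cxcl16 (adjusted p = 0.797 and 0.851) and 0.21 for Cxcl10 (adjusted p = 0.935), and none of these estimates was called.

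The labels' array names split the lymphomas into 5 whose ADR array carries the word sen and 7 whose ADR array carries DOX, and the labels do not say what the words mean. Cxcl2 was called in both sets, with 3.12 in the sen set (adjusted p = 0.0231, limma) and 2.48 in the DOX set (adjusted p = 0.00295). Cxcl5 had a change of 4.94 in the sen set (adjusted p = 0.085) and 3.11 in the DOX set (adjusted p = 0.0104). Cxcl1 at 1457644_s_at had a change of 2.91 in the sen set (adjusted p = 0.129) and 1.67 in the DOX set (adjusted p = 0.0212). The slope of Cxcl5 on the fibroblast mean was called in both, at 1.83 (adjusted p = 0.00823) and 2.06 (adjusted p = 0.0481), and that of Cxcl1 was 1.30 in the sen set (adjusted p = 0.0149) and 1.20 in the DOX set (adjusted p = 0.102). Within the 7 DOX lymphomas the correlation with the fibroblast change was r = 0.86 for Cxcl5 (exact permutation p = 0.0153), 0.78 for Cxcl1 (exact permutation p = 0.0393) and 0.54 for Cxcl2 (exact permutation p = 0.208). It was 0.76 for Cxcl10 (exact permutation p = 0.0333) and 0.63 for Cxcl16 (exact permutation p = 0.131). With the macrophage change the values in the same 7 lymphomas were 0.87 for Cxcl5 (exact permutation p = 0.0159), 0.73 for Cxcl1 (0.0655), 0.56 for Cxcl2 (0.185), 0.88 for Cxcl10 (0.00516) and 0.85 for Cxcl16 (0.0153). With the neutrophil change Cxcl2 gave r = 0.84 (exact permutation p = 0.0101). In the DOX set, then, the fibroblast and the macrophage list did not separate Cxcl1 and Cxcl5 from Cxcl10 and Cxcl16, and none of the 27 relations passed after adjustment there (7 at an unadjusted p under 0.05). With 5 lymphomas, the sen set is too small for a correlation.

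Among themselves, Cxcl1 and Cxcl5 changed nearly in step (r = 0.99 over 12 lymphomas), while Cxcl1 and Cxcl2, which lie next to each other on chromosome 5, gave r = 0.60, and Cxcl2 and Cxcl5 r = 0.69. Cxcl10 and Cxcl16 gave r = 0.66. The genes closest to each member were sought among 10108 genes by the correlation of deviations from the group mean over 24 arrays. For Cxcl1 they were Dcn (0.95), Igfbp6 (0.94) and Dnm1 (0.94), of which Dcn encodes decorin, a matrix proteoglycan in the fibroblast list. For Cxcl5 they were Pcolce (0.97), an enhancer of procollagen processing, Oaf (0.96) and Igfbp6 (0.95). The closest genes to Cxcl2 were Niban2, Rtn4 and Adam8 (0.78 each), the last a metalloproteinase of myeloid cells. Cxcl10 was closest to Thbs1 (0.80), Irf7 (0.79), an interferon-induced transcription factor, and Tnfrsf1a (0.78), and Cxcl16 to Sdr42e1, Tgfbi and Ddhd1 (0.78 each). Members near the floor reached top values of 0.74 to 0.79 by the same search, so a likeness of that size is also found for probe sets with little signal.

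Of 6 further CXC ligands, 2 were called higher and 0 lower in limma, where 13.7% of all genes were called higher and 12.8% lower with 1 probe set per gene. Cxcl3 is a Cxcr2 ligand whose gene lies near that of Cxcl1, with Cxcl15 between them. Cxcl3 had a lowest value of 2.67, a median of 3.50 and a highest value of 9.44 in ADR arrays, against 2.34, 2.80 and 3.21 in untreated arrays (change 1.64, SE 0.49, adjusted p = 0.0252). Its mean was near the floor in both groups, and the call came with high ADR values in lymphomas 403 (9.44), 1467 (7.02) and 1570 (5.14). The slope of Cxcl3 on the fibroblast mean was 0.27 (adjusted p = 0.74), and lymphoma 1467 had no fibroblast increase. Pf4, platelet factor 4, changed by 0.40 (adjusted p = 0.0415) near the floor. Ppbp, which lies beside Cxcl5 and Pf4, was not called (0.88, adjusted p = 0.0613) but was the 1 ligand of this list with a called slope on the fibroblast mean (0.78, adjusted p = 0.00443).

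Receptors showed 1 higher and 1 lower call among 9 genes measured, near the 26.5% of all genes called in either direction. Ackr3, which binds and removes Cxcl12 from the surroundings of a cell, had a lowest value of 2.87, a median of 4.93 and a highest value of 7.97 in ADR arrays, against 2.58, 2.80 and 3.13 in untreated arrays (change 2.30, SE 0.51, adjusted p = 0.00518, limma). It followed the fibroblast mean with a slope of 1.46 (adjusted p = 6.34e-06). Ackr2, a scavenging receptor mainly for CC chemokines, was 1.80-fold lower (change -0.85, SE 0.27, adjusted p = 0.0338). Cxcr4, the Cxcl12 receptor of B cells, had a lowest value of 7.78, a median of 9.43 and a highest value of 10.90 in ADR arrays, against 8.13, 9.81 and 10.78 in untreated arrays, and its change of -0.26 was not called (adjusted p = 0.432). Cxcr5, the Cxcl13 receptor, had 3.81, 5.41 and 7.68 in ADR arrays and 3.74, 5.53 and 9.53 in untreated arrays (change -0.27, adjusted p = 0.536). Cxcr3 had a change of 0.10 and Ackr1 of -0.14, neither called, and Cxcr2, Cxcr6 and Ackr4 were near the floor in both groups. Cxcr2 is the receptor of Cxcl1, Cxcl2 and Cxcl5, and Cxcr6 that of Cxcl16.

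Of 15 genes of the NF-kB and inflammatory cytokine list, 8 were called higher and 0 lower in limma, and 13.7% of all genes were called higher. Il1b, which drives Cxcl1 and Cxcl2 in many cell types, was 2.99-fold higher (change 1.58, adjusted p = 0.0026, limma), Il6 2.84-fold (1.51, adjusted p = 0.00413) and Tnf 2.09-fold (1.07, adjusted p = 0.00019). None of these 3 had a slope called on the fibroblast mean (-0.04, 0.60 and 0.13, adjusted p = 0.951, 0.0771 and 0.527). With 1 probe set per gene, 4 genes of the list did: Il1a (0.78, adjusted p = 0.00324), the receptor gene Il1r1 (0.44, adjusted p = 0.000445), Nfkb2 (0.33, adjusted p = 0.0432) and Tnfaip3 (0.53, adjusted p = 0.0236). The other probe sets of Il1r1, Nfkb2 and Tnfaip3 had no called slope. Of 11 genes of the interferon list 5 were called higher, led by Irf7 (1.13, adjusted p = 0.00649), Gbp2 (0.94, adjusted p = 0.00976) and Ifngr2 (0.79, adjusted p = 0.00789), and 0 were lower, beside the same 13.7% of all genes. The interferon genes Ifng and Ifnb1 were near the floor in both groups, as was Cxcl9.

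Among 6 genes whose products cut chemokines, 4 were called higher and 1 lower with 1 probe set per gene, beside 13.7% and 12.8% of all genes. Mmp8, the neutrophil collagenase, was 5.50-fold higher (2.46, adjusted p = 0.00201, limma), Mmp2 4.24-fold (2.08, adjusted p = 0.00551) and Mmp9 3.32-fold (1.73, adjusted p = 0.000554). Mmp2 followed the fibroblast mean (slope 1.34, adjusted p = 3.4e-06), while the slopes of Mmp8 (0.44) and Mmp9 (0.36) were not called. Adam10, which sheds Cxcl16, changed by 0.22 (adjusted p = 0.0342). Dpp4, which trims the amino end of Cxcl10 and Cxcl12, changed by -1.37 (adjusted p = 0.00302), with a called slope of -0.63 on the fibroblast mean (adjusted p = 0.0144). Of the 5 lymphoid-organisation genes measured, Ltbr, the lymphotoxin beta receptor that induces Cxcl13 in stromal cells, was 2.05-fold higher (1.04, adjusted p = 0.00101) in 12 of 12 lymphomas, with a slope of 0.37 (adjusted p = 0.04), while Cxcl13 itself was not called. The pathway lists together held 52 genes, of which 23 were called in either direction, beside 26.5% of all genes. Of all probe sets, 23.8% were called in either direction.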

How the data were processed

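The deposited values were log2 expression per probe set on Affymetrix arrays, made by the authors with RMA and Partek, per the submitters' processing notes. No version or setting of either is given in the sources used here. RMA compresses weak signals toward a floor. The table held 45101 probe sets: 34945 with 1 gene symbol were tested, and 932 with several symbols, 9160 with none and 64 controls were left out.

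All 34945 were fitted in limma 3.58.1 (R 4.3.3; lmFit and eBayes) with the lymphoma as a block. The pairing of arrays comes from the lymphoma numbers, and the series' text calls the pairs matched. Same-lymphoma arrays deviated together (r of 0.26 to 0.59 in 12 pairs, above 0.1 in every pair), and 0 arrays were identical. In 10 of the 12 lymphomas the untreated array had its highest r with the ADR array of the same lymphoma. A second fit added the fibroblast marker mean of each array. Correlations used permutation tests (Python 3.11.15, numpy 2.4.6) with 100000 resamples, or every ordering under 10 lymphomas. The number of lymphomas limits the precision, and p-values measure the spread between lymphomas. The fits were tested on simulated data.

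Alternatives were no replicate block, 1 probe set per gene, centring, quantile normalization, a mean of at least 5, moderated variances with trend, marker covariates, the 2 naming sets and leaving out each lymphoma. The members and gene lists were chosen with earlier results of these data known. Described were every member probe set, every receptor measured, and up to 3 called genes with the largest change in each further ligand or pathway list. The 3 closest genes are named for Cxcl1, Cxcl2, Cxcl5, Cxcl10 and Cxcl16 only. Marker lists are described mainly by means and counts, without naming the most changed genes of each. Other genes named were chosen after their values were seen. Cxcr1, Nfkb1, Ccl19 and Ccl21a were not analysed here, as none of their probe sets carried that symbol alone.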

Additional observations from a re-analysis of the deposited data

How the results depend on the processing

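Of the 17 chemokine probe sets, 5 were called without the replicate block, the same number as in the paired fit, while the count over all probe sets was 5192, against 8322 in the paired fit; the pathway lists gave 13 calls of 52 without it, against 23. With 1 probe set per gene 3 of 9 members and 4829 of 18193 genes were called. The fibroblast covariate left 1 chemokine probe set, 1669 of all probe sets and 1 gene of the pathway lists. The limma fit with the macrophage covariate called 0 chemokine probe sets (2 at an unadjusted p under 0.05) and 0 of all probe sets (4044 unadjusted). With fibroblast and macrophage covariates the counts were 0 (2 unadjusted) and 0 (3961 unadjusted), and with the neutrophil covariate 0 (1 unadjusted) and 72. In these fits called changes turned sign: Cxcl1 1457644_s_at to -0.24 and 1441855_x_at to -0.22 (fibroblast), and Cxcl1 1419209_at to -1.03, 1457644_s_at to -0.89, 1441855_x_at to -0.18 and Cxcl5 to -0.83 (fibroblast and macrophage), none of them called. The sen set alone called 1 chemokine probe set and 1350 of all probe sets, with slopes called for 3 and 1014. The DOX set alone called 4 chemokine probe sets and 5176 of all, with slopes called for 1 and 704. Each set had fewer lymphomas. Leaving out 1 lymphoma left 5 to 7 chemokine probe sets and 6740 to 8920 of all probe sets called. Slopes were called for 4 to 5 chemokine probe sets and 2964 to 4579 of all, against 4359 with all lymphomas. At an equal fibroblast mean the counts were 0 to 1 chemokine probe sets and 639 to 2061 of all. By Pearson's r, correlations past the threshold numbered 2 of 27 with all lymphomas, 6 without the 2 farthest lymphomas and 0 in the DOX set (7 at an unadjusted p under 0.05). Centring, quantile normalization and trended variances each called 5 chemokine probe sets. The filter on a mean of at least 5 kept 6 of the 17, Cxcl5 only through its ADR values, so its count says nothing about the members. The causes of these moves were not tested. Probe sets near the floor have little room to show a decrease.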
